A study of Mus musculus with 14 samples.

Results

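The miR-34 and miR-449 family was followed along the mouse epididymis, the duct in which sperm mature and are stored. Its 6 members measured here are miR-34a-5p, both arms of miR-34b and miR-34c, and miR-449a-5p. They were taken by name from the 999 mature miRNA names listed in either of the 2 count tables, and all 6 are among the 578 names that both tables list. Whole tissue has 900 names listed and epithelial cells have 677.

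The small RNA of 3 regions, caput, corpus and cauda, had been sequenced from male Swiss mice aged 8 weeks, with no treatment or genetic change. Whole tissue gave 8 libraries (3 caput, 2 corpus and 3 cauda), and isolated epithelial cells gave 6 libraries, 2 from each region. The vessels of all animals were perfused with buffered saline, and every library pooled RNA from several mice. Whole tissue kept its muscle, stroma and luminal sperm, whereas for epithelial cells the tissue was cleared of sperm, digested with enzymes, strained and separated from cells that attached to plastic.

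The libraries of whole tissue held between 1243398 and 2135501 counts, and those of epithelial cells between 89039 and 362867, so that values in epithelial cells rest on far fewer reads. Markers bear out the epithelial label in part. The summed level of 7 epithelial miRNAs of the miR-200 family with miR-205-5p and miR-203-3p averaged 27511, 39744 and 37618 CPM, which are read counts relative to the library's size after TMM scaling, in epithelial caput, corpus and cauda, and 22755, 17845 and 9080 CPM in whole tissue. The summed level of 6 smooth muscle miRNAs averaged 170473, 211708 and 247890 CPM in epithelial cells and 58945, 78411 and 239778 CPM in whole tissue. The 4 red blood cell miRNAs averaged 427, 320 and 2277 CPM in epithelial cells against 93.5, 257 and 1139 CPM in whole tissue, and the 2 endothelial miRNAs 30635, 13707 and 51654 CPM against 16047, 14344 and 16857 CPM. These sums are scaled within each preparation and are not on one scale between them. On the joint scale 2 of the 7 epithelial miRNAs were called higher in epithelial cells in the caput, miR-205-5p by 2.42 and miR-203-3p by 1.19 on the log2 scale, and miR-141-3p was called lower, by 1.07, with a list median of 0.07. In the corpus 2 were called higher and in the cauda 4, with none lower and medians of 0.62 and 1.43. Of smooth muscle miRNAs 2 of 3 tested were called higher in epithelial caput (median 1.43) and 2 of 3 in the corpus (1.28). In the cauda 0 of 4 were called (0.29). Of leukocyte miRNAs 1 of 2 was called higher in the caput, 0 of 2 in the corpus, and in the cauda 2 of 3 higher and 1 lower. No red blood cell miRNA was called. Among all miRNAs tested, 35.9, 27.3 and 36.5% were called in either direction in these regions.

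MiRNAs of this family are made as hairpins from which a 5p and a 3p strand are cut, and bases 2 to 8 of the strand that is kept, the seed, direct it to its target messages. The 5p strands share a seed across the family. The tumour suppressor p53 induces miR-34a, while miR-34b, miR-34c and the miR-449 cluster are known for the formation of multiciliated cells and are abundant in male germ cells. MiR-34c is also carried by sperm, which pass through all regions of the epididymis and are stored in the cauda.

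The sequences are shown because reads of near-identical strands can be confused and because the 2 arms of miR-34b and miR-34c carry different seeds. They are the mature strands of RefSeq on GRCm38.p6, where 5 of the 6 members matched and miR-34c-5p is named only. The seed is in capitals.
miR-34a-5p: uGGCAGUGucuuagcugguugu
miR-34b-5p: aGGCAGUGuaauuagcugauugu
miR-449a-5p: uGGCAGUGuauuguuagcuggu
miR-34b-3p: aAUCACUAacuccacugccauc
miR-34c-3p: aAUCACUAaccacacagccagg

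MiR-34a-5p, miR-34b-5p and miR-449a-5p share the seed GGCAGUG, and miR-34b-3p and miR-34c-3p share the seed AUCACUA. Counted from the 5′ end, miR-34b-3p and miR-34c-3p are identical over the first 10 bases and at 17 of 22 in all. They differ by U11C, C12A, U16A, U21G and C22G, with the base of miR-34b-3p first. MiR-34a-5p and miR-449a-5p are identical over the first 9 bases and at 15 of 22.

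MiR-34b-5p lies at chr9:51103610-51103632 and miR-34b-3p at chr9:51103574-51103595, on the minus strand. MiR-34c-3p lies at chr9:51103044-51103065 on the same strand, and 451 bases separate the Mir34c and Mir34b hairpins. Both lie within a transcript of Btg4, on its opposite strand and outside its exons. MiR-34a-5p lies at chr4:150068473-150068494 on the plus strand, inside an exon of the unclassified gene Gm37795. MiR-449a-5p lies at chr13:113037549-113037570 on the plus strand, in an intron of all 5 transcripts of Cdc20b, on the same strand.

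MiR-34c-5p was by far the most abundant member, and together the 6 took only a small share of any library. In whole tissue the family took between 0.344 and 0.443% of the counts of caput libraries, 0.416 and 0.508% for the corpus, and 0.949, 1.03 and 1.14% for the cauda. In epithelial cells caput libraries gave shares of 0.391 and 0.372%, corpus libraries 0.218 and 0.215%, and cauda libraries 0.198 and 0.623%. The whole cauda libraries were thus the highest of all, and the 2 epithelial cauda libraries stood apart from each other. MiR-34c-5p made up between 78.8 and 90.3% of the family's counts in every library. By mean level it ranked 30th, 30th and 17th among the 900 names in whole caput, corpus and cauda.

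The reads of 2 members cannot be separated fully. MiR-34b-5p and miR-34c-5p both held a fraction of 0.5 of a read in the same 6 of 14 libraries, which is taken here as a read divided between them, and the other 4 members held whole numbers in every library. In whole tissue there were between 20.3 and 25.9 counts of miR-34c-5p for each of miR-34b-5p, with little difference between regions. In epithelial cells this ratio lay between 11.7 and 21.6, and it was lowest in the 2 cauda libraries. How far reads of one entered the count of the other was not tested.

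**Figure D1:**
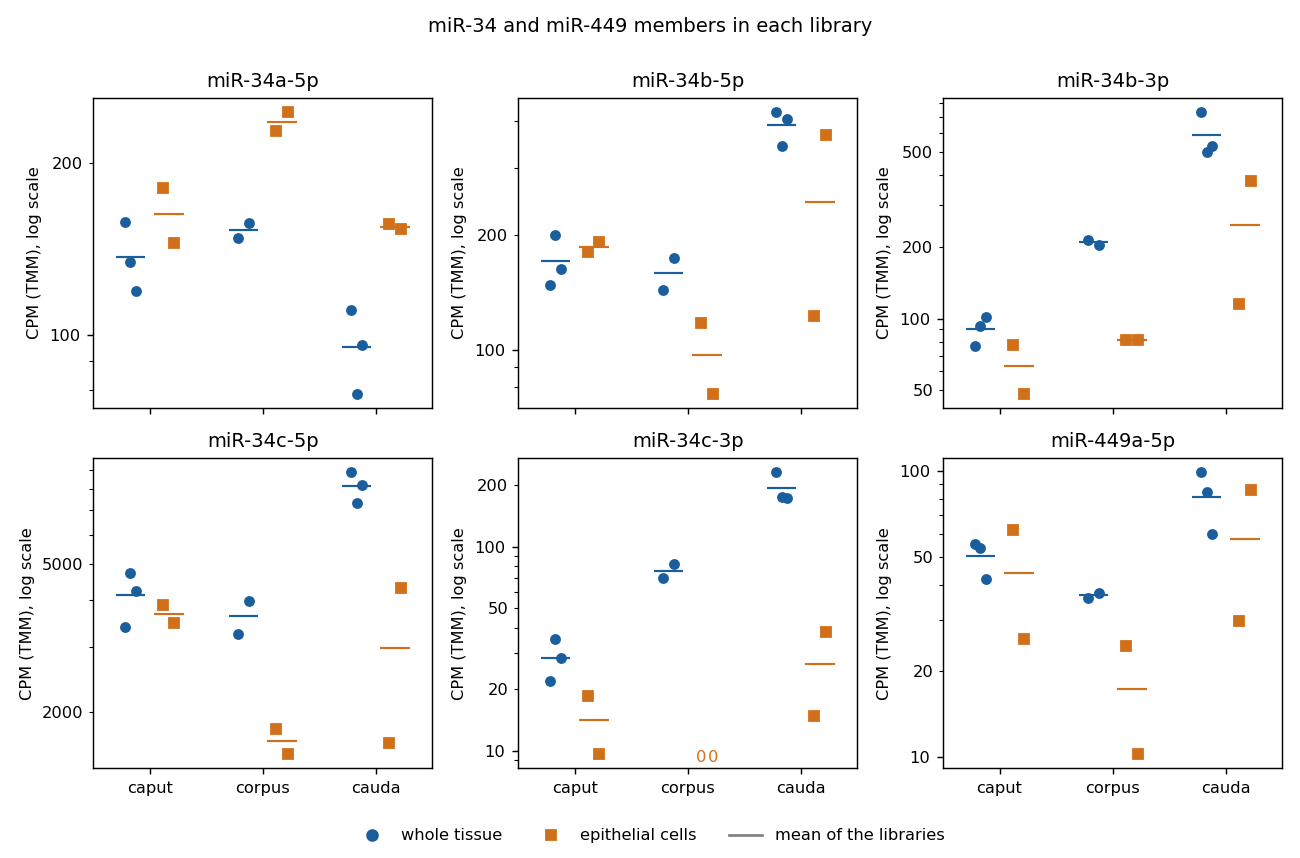
Level of each member in each library, in TMM-scaled CPM on a log scale, for whole tissue (circles) and epithelial cells (squares), with the mean of the libraries as a line. TMM factors are computed within each preparation, so the levels of circles and squares are not on one scale; a 0 marks a library without a count. All whole cauda libraries lie above all whole caput libraries except for miR-34a-5p, where they lie below, and the 2 epithelial cauda libraries lie far apart except for miR-34a-5p.

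In whole tissue the 5p strand of miR-34c was not called from caput to corpus and rose from corpus to cauda. Caput libraries stood at 3388, 4750 and 4235 CPM, corpus libraries at 3249 and 3984, and cauda libraries at 8874, 7335 and 8204. The cauda libraries lay above all others, and those of caput and corpus overlapped. From corpus to cauda miR-34c-5p rose 2.25-fold (log2 change 1.17 ± 0.15 SE, limma adjusted p = 0.000118). From caput to cauda the change was 1.99-fold (log2 change 0.99 ± 0.13 SE, limma adjusted p = 6.54e-05), just short of the 2-fold that a call requires here beside an adjusted p below 0.05. With DESeq2's size factors in place of TMM the same change was 1.08 on the log2 scale and was called, and it was also called without caput replicate 2 (log2 change 1.17).

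MiR-34b-5p, cut from the neighbouring hairpin, followed the same course. Caput libraries held 148, 201 and 163 CPM of it, corpus libraries 143 and 174, and cauda libraries 421, 344 and 405. All cauda libraries were again above the rest, with caput and corpus overlapping. The rise was 2.45-fold from corpus to cauda (limma adjusted p = 0.000108) and 2.30-fold from caput to cauda (limma adjusted p = 2.48e-05).

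MiR-449a-5p, from the intron of Cdc20b, was far lower and dipped in the corpus. Caput libraries held 55.3, 53.8 and 41.7 CPM, corpus libraries 35.9 and 37.4, and cauda libraries 98.8, 84.3 and 60.1. No 2 regions overlapped, but the gap between caput and corpus was small, and that difference missed the threshold (log2 change -0.43 ± 0.26 SE, limma adjusted p = 0.189). The rise from corpus to cauda was 2.16-fold (limma adjusted p = 0.00429). Without cauda replicate 1 this rise was 0.95 on the log2 scale and no longer reached 2-fold.

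The 3p strands behaved differently, in that they rose at both steps. MiR-34b-3p stood at 76.5, 93.1 and 102 CPM in caput libraries, 214 and 203 in corpus libraries, and 733, 500 and 527 in cauda libraries. No library of one region overlapped with another. It rose 2.31-fold from caput to corpus (log2 change 1.21 ± 0.21 SE, limma adjusted p = 0.000812) and a further 2.78-fold from corpus to cauda (limma adjusted p = 0.000108). From end to end the rise was 6.43-fold (log2 change 2.68 ± 0.18 SE, limma adjusted p = 4.25e-07).

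MiR-34c-3p, the scarcest strand of the cluster, gave 34, 51 and 52 counts in caput libraries, 94 and 125 in corpus libraries, and 449, 284 and 294 in cauda libraries. In CPM these were 21.9, 35.2 and 28.5, then 70.2 and 82.0, then 231, 175 and 173, again without overlap between regions. It rose 2.71-fold from caput to corpus (limma adjusted p = 0.00065), 2.52-fold from corpus to cauda (limma adjusted p = 0.000285) and 6.81-fold from caput to cauda (limma adjusted p = 9.91e-07).

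MiR-34a-5p, the p53-induced member, went the other way. It stood at 158, 134 and 119 CPM in caput libraries, 148 and 157 in corpus libraries, and 111, 78.8 and 96.1 in cauda libraries. Every cauda library lay below every other, while caput and corpus overlapped. The level in the cauda was lower by 0.69 ± 0.17 SE on the log2 scale than in the corpus (limma adjusted p = 0.0077) and by 0.52 ± 0.16 SE than in the caput (limma adjusted p = 0.0111), both less than 2-fold and so not called.

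Across the family, 2 of 6 members were called from caput to corpus, both higher, where 29.9% of the 334 miRNAs tested were called in either direction and 14.1% were called higher. From corpus to cauda 5 of 6 were called higher, against 27.3% called in either direction and 14.4% called higher among 341. From caput to cauda 3 of 6 were called higher, against 53.2% called and 27.9% called higher among 355. The median log2 change of the members was 0.04, 1.23 and 1.096 in these 3 comparisons, where that of all miRNAs tested was -0.05, 0.05 and -0.05. The comparisons share libraries and are not independent of each other. Markers of cell types moved along the same regions. From caput to corpus 3 of 3 tested miRNAs of red blood cells (median log2 change 1.51) and 1 of 4 of leukocytes (0.34) were called higher, 0 of 5 of smooth muscle and 0 of 2 of endothelium were called, and 2 of 7 epithelial miRNAs were called lower (-0.34). From corpus to cauda 4 of 6 smooth muscle miRNAs (median log2 change 1.63), 2 of 4 of red blood cells (1.25) and 1 of 5 of leukocytes (0.70) were called higher, 0 of 2 of endothelium were called, and 2 of 7 epithelial miRNAs were called lower (-0.84). From caput to cauda these were 6 of 6, 4 of 4 and 3 of 5 called higher, 0 of 2 called, and 5 of 7 called lower. Smooth muscle, red blood cells and leukocytes had 5, 3 and 4 miRNAs tested from caput to corpus, and 6, 4 and 5 with the cauda. Those added passed the count filter only through the cauda, which favours a call of higher there. The part of these cell types in the members' changes was not tested. Scaling by library totals moved the median of all miRNAs by 0.33 from caput to corpus and 0.35 from caput to cauda, and 5 members were then called from caput to cauda.

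**Figure D2:**
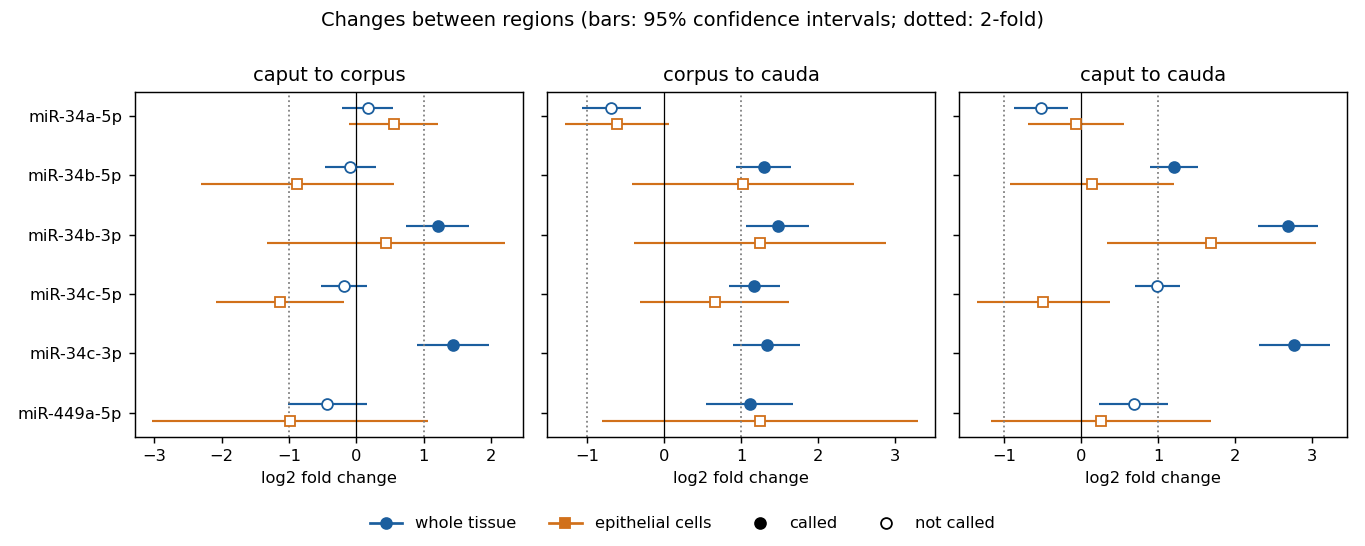
Log2 fold change of each member in the 3 comparisons of regions, for whole tissue (circles) and epithelial cells (squares), with 95% confidence intervals of the limma fit. Filled symbols mark changes that were called and dotted lines mark 2-fold; the filled symbols are all in whole tissue, 2 from caput to corpus, 5 from corpus to cauda and 3 from caput to cauda, and miR-34c-3p was not tested in epithelial cells.

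In whole tissue miR-34b exchanged its more abundant arm between caput and corpus. The 3p strand made up 34.1, 31.7 and 38.3% of the reads of both arms in the 3 caput libraries, 59.9 and 53.9% in those of the corpus, and 63.5, 59.2 and 56.6% in those of the cauda. Each caput library thus held more 5p than 3p reads, each corpus and cauda library more 3p than 5p reads, and the caput overlapped with neither. Exact 95% binomial intervals, which cover counting error only, reached at most 42.8% in the caput and at least 54.1% in the cauda. In the corpus the lower bounds were 55.4 and 49.7%, so that in replicate 2 the excess of 3p reads was within counting error.

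The ratio of 5p to 3p reads of miR-34b fell by 1.31 ± 0.21 SE on the log2 scale from caput to corpus (limma adjusted p = 0.000862 over 96 hairpins) and by 1.49 ± 0.18 SE from caput to cauda (limma adjusted p = 0.000308). Between corpus and cauda the change was -0.17 ± 0.21 SE (limma adjusted p = 0.675). The exchange thus lay between caput and corpus, where miR-34b-5p differed by -0.09 ± 0.17 SE on the log2 scale and miR-34b-3p rose. In the cauda both strands were higher than in the corpus, by similar factors.

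MiR-34c changed the same way, but the 5p strand stayed dominant throughout. Its 3p strand made up 0.641, 0.735 and 0.669% of the reads of both arms in caput libraries, 2.12 and 2.02% in corpus libraries, and 2.54, 2.33 and 2.07% in cauda libraries. The caput libraries lay below all others, whose ranges overlapped. The 5p to 3p ratio fell by 1.61 ± 0.14 SE on the log2 scale from caput to corpus (limma adjusted p = 8.11e-05) and by 1.77 ± 0.12 SE from caput to cauda (limma adjusted p = 1.36e-05), with a change of -0.16 ± 0.14 SE between corpus and cauda (limma adjusted p = 0.514).

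These shifts can be set beside those of other hairpins. From caput to corpus 17.7% of the 96 ratios were called and 8.33% were called lower, and the falls of miR-34c and miR-34b were the 6th and 8th largest. From corpus to cauda 5.21% were called, and from caput to cauda 14.6%, with 6.25% called lower. The median change of all hairpins from caput to corpus was 0.20, opposite in sign to both. Between caput and corpus, 7 of the 96 hairpins had one strand ahead in all libraries of one region and the other strand ahead in all of the other. These were miR-34b, miR-152, miR-299a, miR-30e, miR-582, miR-669a and miR-708, and in 4 of them the 5p strand led in the caput. Between caput and cauda only miR-34b and miR-669a did so. The 6 hairpins outside the family were named after their values were seen.

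**Figure D3:**
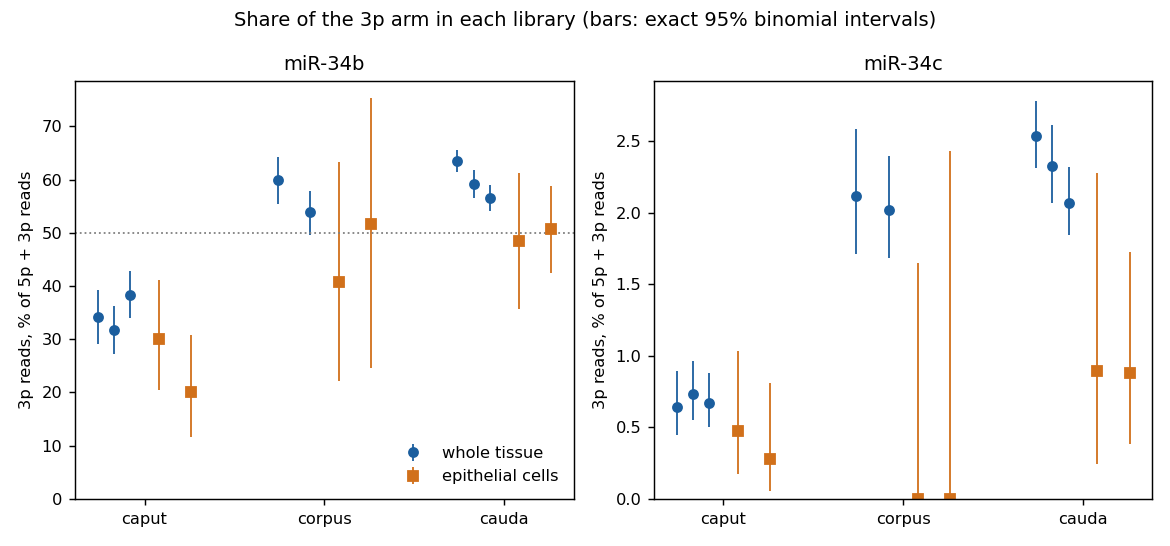
Share of 3p reads among the reads of both arms of miR-34b (left) and miR-34c (right), in percent, for each library of whole tissue (circles) and epithelial cells (squares), with exact 95% binomial intervals. The dotted line at 50% marks equal arms; whole tissue crosses it between caput and corpus for miR-34b, and for miR-34c the share remains below 3% in all libraries.

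The 2 hairpins also kept opposite orders of their strands in whole tissue. MiR-34c-5p outnumbered miR-34b-5p by at least 20.3 times in each library, whereas miR-34b-3p outnumbered miR-34c-3p by between 2.48 and 3.56 times. From caput to corpus both 3p strands rose while neither 5p strand was called, and from corpus to cauda all 4 strands rose.

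**Figure D4:**
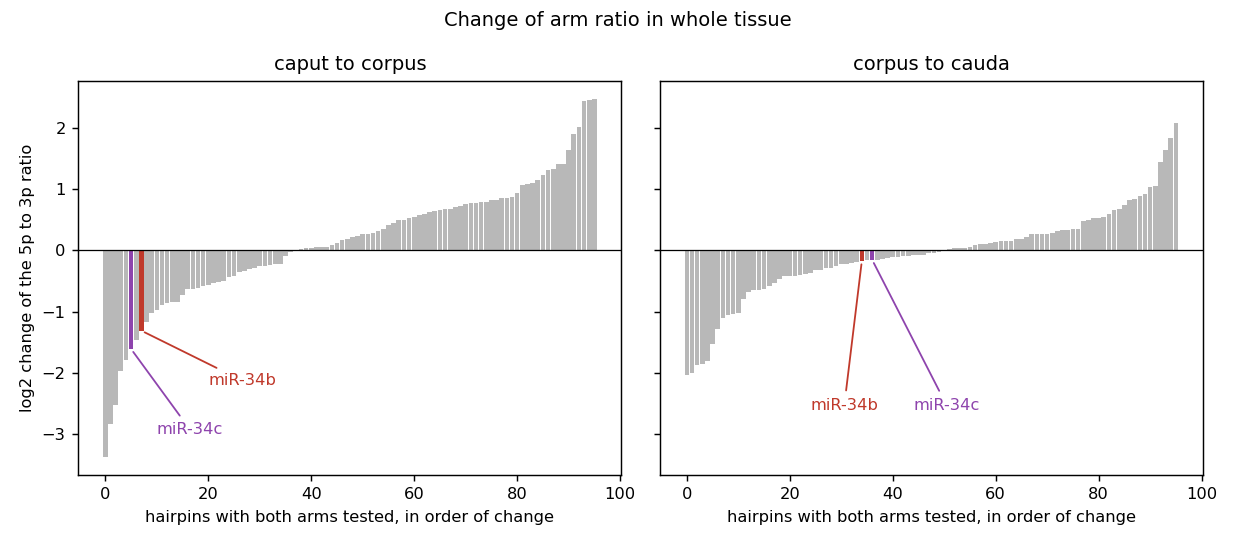
Log2 change of the 5p to 3p ratio in whole tissue for the 96 hairpins whose arms were both tested, in order of the change, from caput to corpus (left) and from corpus to cauda (right). MiR-34b and miR-34c are among the 8 largest falls on the left, at -1.31 and -1.61, and near 0 on the right.

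The epithelial cells showed the shift of miR-34b at a lower depth. The 3p strand took 30.1 and 20.1% of the reads in the 2 caput libraries, 40.8 and 51.6% in those of the corpus, and 48.4 and 50.6% in those of the cauda. Both caput libraries lay below the other 4, and those of corpus and cauda overlapped. The 5p to 3p ratio changed by -1.36 ± 0.44 SE on the log2 scale from caput to corpus (limma adjusted p = 0.134 over 32 hairpins) and by -1.55 ± 0.44 SE from caput to cauda (limma adjusted p = 0.0726). These changes have the size of those in whole tissue and were not called, and 3.12% of the 32 ratios were called in each comparison. The corpus libraries held only 14.5 and 7.5 reads of miR-34b-5p and 10 and 8 of miR-34b-3p, and their 95% intervals ran from 22.1 to 63.4% and from 24.7 to 75.3%.

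MiR-34c-3p gave 6 and 3 counts in epithelial caput libraries, 0 and 0 in corpus libraries, and 4 and 8 in cauda libraries. It was not tested between regions. The 0 counts in the corpus allow, by their exact intervals, a 3p share of miR-34c of up to 1.65 and 2.43%, of which the first lies below the 2.12 and 2.02% seen in whole corpus and the second does not.

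Among epithelial regions, no member was called. Their levels were lowest in the corpus for 3 of the 5 members tested. MiR-34c-5p stood at 3896 and 3472 CPM in caput libraries, 1797 and 1537 in corpus libraries, and 1646 and 4308 in cauda libraries. The caput and corpus libraries were apart, whereas 1 cauda library lay between the 2 of the corpus and the other lay above both of the caput. From caput to corpus the log2 change was -1.14 ± 0.41 SE (limma adjusted p = 0.0846), and from caput to cauda it was -0.49 ± 0.37 SE (limma adjusted p = 0.324). When only these 2 regions were fitted, the difference from caput to corpus was -1.06 and was called (limma adjusted p = 0.00609).

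MiR-34b-5p stood at 180 and 192 CPM in epithelial caput libraries, 118 and 76.6 in corpus libraries, and 123 and 368 in cauda libraries. The corpus lay below both other regions, and the cauda libraries lay on either side of those of the caput. MiR-34b-3p stood at 77.8 and 48.3 CPM in caput libraries, 81.1 and 81.7 in corpus libraries, and 115 and 377 in cauda libraries, without overlap between regions. Its change from caput to cauda was 1.69 ± 0.59 SE on the log2 scale (limma adjusted p = 0.0511), and it was called with DESeq2's size factors and with both other tests. The change was 2.64 without cauda replicate 1 and 0.89 without cauda replicate 2.

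The remaining members gave few reads or small differences. MiR-449a-5p gave 20 and 8 counts in epithelial caput libraries, 3 and 1 in corpus libraries, and 8 and 18 in cauda libraries, with overlap between caput and cauda. Against 3 counts per library, its mean exceeded the corpus by at least 1.56-fold in caput libraries and at least 2.23-fold in cauda libraries. Leaving out caput replicate 1 lowered the first bound to 1.01-fold, and leaving out cauda replicate 2 lowered the second to 1.2-fold. MiR-34a-5p stood at 180 and 145 CPM in caput libraries, 227 and 245 in corpus libraries, and 156 and 153 in cauda libraries, highest in both corpus libraries.

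The count of members called in epithelial cells was therefore 0 of 5 tested in each of the 3 comparisons, where 12.2, 10.9 and 25.9% of the miRNAs tested were called from caput to corpus, corpus to cauda and caput to cauda. At an unadjusted p below 0.05 limma gave 1 member, miR-34c-5p, from caput to corpus, 1 member, miR-34b-3p, from caput to cauda, and 0 from corpus to cauda. By edgeR's quasi-likelihood test and by DESeq2 the counts were the same except for 1 member, miR-34b-3p, from caput to cauda. The median log2 change of the 5 members was -0.88, 1.02 and 0.14, where that of all miRNAs tested was -0.15, 0.08 and -0.001. Markers of other cell types also differed between epithelial regions. Both endothelial miRNAs were called lower from caput to corpus (median log2 change -1.20), from corpus to cauda both were called higher (1.86), with 2 of 3 of red blood cells and 1 of 2 of leukocytes, and from caput to cauda 3 of 3 of red blood cells and 2 of 2 of leukocytes were called higher. Of the epithelial list 1 of 7 was called higher from caput to corpus and 2 of 7 lower from corpus to cauda, and no smooth muscle miRNA was called in any of the 3 comparisons. Of red blood cell miRNAs 2, 1 and 3 had a mean count above 10 in epithelial caput, corpus and cauda. Some of those called thus passed the count filter only through the cauda, which favours a call of higher there. The part of these cell types in the members' levels was not tested. Of the members, miR-449a-5p and miR-34b-3p had a mean count of at most 10 in the corpus and entered through the other region.

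These counts move with the 2 epithelial cauda libraries. Replicate 2 held 2.98 times as much miR-34b-5p as replicate 1, 3.25 times as much miR-34b-3p, 2.62 times as much miR-34c-5p and 2.82 times as much miR-449a-5p. These were the 6th to 9th highest ratios among 191 miRNAs identified in that region, while miR-34a-5p had a ratio of 0.977. Without replicate 1, 3 members were called higher from corpus to cauda (miR-34b-3p, miR-34b-5p and miR-34c-5p) and 2 from caput to cauda (miR-34b-3p and miR-34b-5p). Without replicate 2, miR-34c-5p was called lower from caput to cauda (log2 change -1.16, limma adjusted p = 0.00463) and none from corpus to cauda. Without either one, miR-34c-5p was called lower from caput to corpus, and the lone library was assumed to vary as the other regions did.

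Germline miRNAs moved with the same library. Of the 36 miRNAs listed as germline-linked, mostly of the X-linked cluster of miR-465 to miR-883 that is abundant in testis, 8 were identified in the epithelial cauda, and all 8 were higher in replicate 2. Their median log2 ratio was 1.18, against -0.06 for all 191. Above all members lay the germline miR-743b-3p, miR-871-5p and miR-465c-5p, with log2 ratios of 2.39, 1.83 and 1.77. MiR-184-3p and miR-375-3p, which are on no list used here, lay above them too (2.48 and 2.20). These 2 were named after their values were seen. The summed level of the list was 1005 CPM in replicate 1 and 2202 CPM in replicate 2. The 7 epithelial markers were also higher in replicate 2, with a median log2 ratio of 0.37, and the 4 smooth muscle markers identified were lower, with a median of -0.92. All 3 red blood cell miRNAs identified (median -0.81) and both of leukocytes (-0.25) were lower as well, and of the 2 of endothelium 1 was higher (-0.14). The part of these cell types in the difference was not tested.

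**Figure D5:**
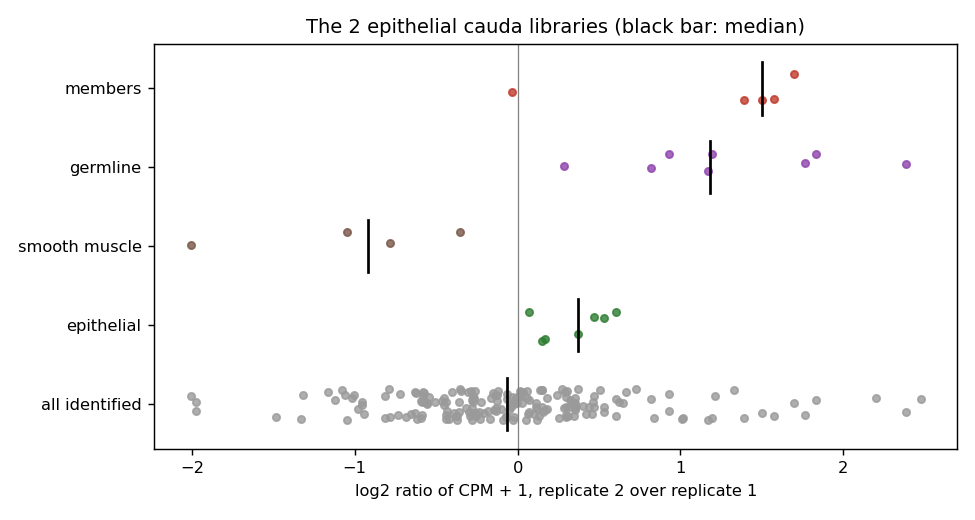
Log2 ratio of replicate 2 to replicate 1 of the epithelial cauda, computed on CPM + 1, for all identified miRNAs, for the epithelial, smooth muscle and germline lists and for the members; black bars mark medians. The 8 germline miRNAs all lie above 0 with a median of 1.18, as do 4 of the 5 members, while miR-34a-5p lies at -0.03 and the smooth muscle markers lie below 0.

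The germline list also changed along the regions. In whole tissue the list summed to between 553 and 917 CPM in caput libraries, 2220 and 2357 in corpus libraries, and 3461 and 5665 in cauda libraries. Of its members with a mean count above 10 in both regions, 12 of 12 were called higher from caput to corpus (median log2 change 1.97), 8 of 18 from corpus to cauda (0.78) and 12 of 12 from caput to cauda (2.86). The 3p strands of miR-465a, miR-465b and miR-465c carry identical values and count as 3 of these.

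From caput to corpus in whole tissue, where those 12 rose, miR-34c-5p, miR-34b-5p and miR-449a-5p were not called and had changes of -0.18, -0.09 and -0.43 on the log2 scale. MiR-34b-3p and miR-34c-3p rose there by 1.21 and 1.44. From corpus to cauda the 5p strands of miR-34c, miR-34b and miR-449a rose by 1.17, 1.29 and 1.11, and the 3p strands of miR-34b and miR-34c by 1.47 and 1.33. No test compared the members with the list. In epithelial cells the list summed to 314 and 209 CPM in caput libraries, 2548 and 1103 in corpus libraries, and 1005 and 2202 in cauda libraries. Only 2 of the list, miR-470-5p and miR-871-3p, had a mean count above 10 in both caput and corpus, and they rose there by 2.52 and 2.74 on the log2 scale, where miR-34c-5p had a change of -1.14 that was not called. From corpus to cauda 0 of the 6 with such counts in both regions were called. The 2 epithelial corpus libraries differed more than 2-fold in the germline sum, with 2548 and 1103 CPM, and less in miR-34c-5p, with 1797 and 1537 CPM.

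Setting epithelial cells against whole tissue, no member was called in the caput, and miR-34c-5p and miR-34b-3p were lower in epithelial cells in the cauda. For this comparison both tables were scaled together. Smooth muscle and leukocyte miRNAs also differed in it, as given above, and their part in the members' differences was not tested. The preparations are separate count tables that differ in depth, and the preparation cannot be told apart from anything else that differed between the tables. In bulk samples, fewer cells of a type and less RNA per cell cannot be told apart either.

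In the caput, miR-34c-5p stood at 3471 and 3555 CPM in epithelial cells and at 3420, 4472 and 4213 CPM in whole tissue, on the joint scale. The ranges overlapped, and the difference was -0.19 ± 0.23 SE on the log2 scale, with a 95% interval from -0.68 to 0.30. None of the 6 members was called in the caput, by limma with either scaling or by edgeR or DESeq2, where 35.9% of 284 miRNAs were, and none had an unadjusted p below 0.05. MiR-34c-3p, with 6 and 3 counts in epithelial cells, passed the filter only through whole tissue.

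In the corpus 2 of 6 were called lower in epithelial cells, of which miR-34c-3p was tested only through its count in whole tissue and could hardly come out otherwise, where 27.3% of 275 miRNAs were called in either direction and 19.3% were called lower. MiR-34c-5p stood at 1664 and 1496 CPM against 3313 and 4054 CPM, without overlap, a difference of -1.21 ± 0.32 SE on the log2 scale (limma adjusted p = 0.00807). Without epithelial corpus replicate 2 the difference was -1.13, and the call was lost. MiR-34b-3p had a difference of -1.39 (limma adjusted p = 0.0505) and was called lower by edgeR and DESeq2, but its 10 and 8 counts in epithelial cells were also below the filter. MiR-34c-3p was absent from both epithelial libraries, and whole tissue was at least 2.96-fold higher when 3 counts per library were set in place of 0. MiR-449a-5p was at or under 3 counts in both, and whole tissue exceeded it by at least 1.42-fold.

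In the cauda 3 of 6 were called lower, again with miR-34c-3p passing the filter only through whole tissue, where 36.5% of 296 miRNAs were called in either direction and 19.9% were called lower. MiR-34c-5p stood at 1736 and 4288 CPM in epithelial cells against 9146, 7954 and 8670 CPM in whole tissue, without overlap, a difference of -1.67 ± 0.24 SE on the log2 scale (limma adjusted p = 4.23e-05). MiR-34c-3p, with 4 and 8 counts in epithelial cells, was at 15.7 and 38.0 CPM against 238, 190 and 183 CPM. MiR-34b-3p was at 122 and 376 CPM against 756, 542 and 557 CPM, a difference of -1.55 ± 0.33 SE (limma adjusted p = 0.00115). Without epithelial cauda replicate 1 the differences of miR-34c-5p and miR-34b-3p were -1.0 and -0.70, and miR-34b-3p was no longer called. MiR-34b-5p was not called (log2 difference -0.94), but was with library totals (-1.03) or DESeq2's size factors (-1.07). Its difference was -0.16 without epithelial cauda replicate 1 and -1.77 without replicate 2.

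MiR-34a-5p alone of the 6 was higher in epithelial cauda, at 165 and 152 CPM against 114, 85.5 and 102 CPM, without overlap. Its difference was 0.68 ± 0.24 SE on the log2 scale (limma adjusted p = 0.0307), less than 2-fold and so not called. Most germline miRNAs passed the count filter only through whole tissue, where they are high, so only those with a mean count above 10 in both preparations are described. Of these, 0 of 2 were called in the caput, 0 of 6 in the corpus and 7 of 8, all lower in epithelial cells, in the cauda. Their median log2 difference was -0.69, -0.21 and -1.50 in the 3 regions, where that of miR-34c-5p was -0.19, -1.21 and -1.67.

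The change of miR-34c-5p from caput to cauda differed between the preparations. The interaction of preparation and region was -1.48 ± 0.33 SE on the log2 scale (limma adjusted p = 0.00465), that is, the change was lower in epithelial cells. This was the only member called there, where 18.6% of the 194 miRNAs identified in both preparations were called and 5.15% were called in that direction. Without epithelial cauda replicate 1 the interaction was -0.81 (limma adjusted p = 0.0222) and no longer reached 2-fold, and without replicate 2 miR-34b-3p and miR-34b-5p were called too (-1.71 and -1.70). Over the caput to corpus and the corpus to cauda step no member was called, with 1.03 and 7.22% of all miRNAs called. No member was called there by edgeR or with library totals either. At an unadjusted p below 0.05 limma gave 1 member, miR-34c-5p, at the first of these steps and 0 at the second. The median interaction of the 5 members from caput to cauda was -0.999, against 0.32 for all miRNAs tested, a value that was 0.16 with library totals and 0.12 with DESeq2's size factors.

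By pattern over the 14 libraries, miR-34b-5p was the closest of all to miR-34c-5p. Likeness was taken as the root mean square difference of log2 CPM, centred within each preparation, between miR-34c-5p and each of 193 miRNAs identified in both preparations. It was 0.22 for miR-34b-5p and 0.45 for miR-449a-5p, which ranked 4th, against 0.58 for a flat profile. The 5 closest others were miR-128-3p (0.40), miR-19a-3p (0.42), miR-501-3p (0.45), miR-532-5p (0.47) and miR-350-3p (0.47). MiR-34a-5p at 0.84, ranked 110th, and miR-34b-3p at 0.86, ranked 112th, were far less alike. The points share libraries and depth, and reads of miR-34b-5p and miR-34c-5p may be shared.

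Other miRNAs listed as p53-induced went in both directions. In whole tissue 5 of the 7 listed were tested, and from caput to cauda miR-143-3p and miR-145a-5p were called higher, by 2.03 and 2.11 on the log2 scale, and miR-107-3p lower, by 1.55. The first 2 are also on the smooth muscle list. MiR-192-5p and miR-194-5p had changes of -0.87 and -0.35 there, less than 2-fold and so not called, and the median of the 5 was -0.35, where miR-34a-5p had -0.52. From caput to corpus miR-107-3p fell by 2.22 and miR-192-5p by 1.19, and from corpus to cauda miR-143-3p and miR-145a-5p rose. In epithelial cells only miR-107-3p was called, and it fell by 1.03 from caput to cauda.

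The other strands of the family were at or near 0. MiR-34a-3p gave between 1 and 4 counts in a whole tissue library and at most 1 in an epithelial one, and miR-449a-3p gave at most 1. MiR-449c-3p is listed for whole tissue only, also with at most 1 count, and miR-449b and miR-449c-5p are listed in neither table.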

How the data were processed

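Reads had been base-called with CASAVA 1.8.2, and the submitters' processing notes name Bowtie 1.1.1 and limma. The authors deposited, for each preparation, expected counts per mature miRNA of miRBase 21, not normalized, with 0.001 added to every epithelial value, which was removed. How reads that match several miRNAs were treated is not given in the sources used here. All columns were mapped by the sample descriptions, and the paper calls the replicates biological, but once technical, and its methods give 2 replicates where whole caput and cauda hold 3 libraries, so p-values measure the spread between libraries, which may be technical.

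In R 4.3.3, rounded counts were scaled with the TMM factors of edgeR 4.0.16, and voom of limma 3.58.1 gave the tests, in 1 fit over the 3 regions of a preparation. Tests covered miRNAs with a mean count above 10 in either region, with Benjamini-Hochberg adjustment over all of them. A change was called at an adjusted p below 0.05 and at least 2-fold. Preparations, and the interaction of preparation and region, were tested in 1 fit over the 14 libraries and the names in both tables. Arm ratios were log2((5p + 0.5)/(3p + 0.5)) for each hairpin with a mean count above 10 for each arm in at least 1 region, tested by limma. Floors are 3 counts per library, and intervals cover counting error only.

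As alternatives, edgeR's quasi-likelihood test, DESeq2 1.42.0, other scalings, filters and pseudocounts, a replicate block, the sum of miR-34b-5p and miR-34c-5p, and each library left out in turn were tried. On simulated data, 4-fold changes were recovered for 89 of 90 miRNAs in whole tissue and 74 of 78 in epithelial cells from caput to cauda. These shares hold for the spread between libraries set in the simulation. How it compares with the spread of the members was not tested, so the shares do not give the power of their epithelial tests. The epithelial cauda libraries differed 3.25-fold in miR-34b-3p and 2.62-fold in miR-34c-5p, while miR-34a-5p had a ratio of 0.977. The named miRNAs are the 6 members, the other arms of the family, the 5 miRNAs most like miR-34c-5p, called p53-induced miRNAs and up to 4 called germline miRNAs per comparison. Members and lists were chosen with earlier results of these data known.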

Additional observations from a re-analysis of the deposited data

Results flagged for a closer look

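The change of miR-34c-5p from caput to cauda differed between the preparations, with an interaction of -1.48 on the log2 scale (limma adjusted p = 0.00465), and this is a test of the difference itself. In whole tissue the level went from between 3388 and 4750 CPM to between 7335 and 8874 CPM, and in epithelial cells it went from 3896 and 3472 CPM to 1646 and 4308 CPM. Without epithelial cauda replicate 1 the interaction was -0.81, and without replicate 2 it was -2.07.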

How the results depend on the processing

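The calls in whole tissue were the steadier ones. The number of members called remained within 1.5 times under every alternative tried, except that library totals gave 5 from caput to cauda, and leaving out single libraries gave 2 from caput to corpus, 4 to 5 from corpus to cauda and 3 to 4 from caput to cauda. MiR-34c-5p, which lies just under 2-fold from caput to cauda, was called there by DESeq2, with DESeq2's size factors or library totals, with only the 2 regions fitted and without several of the single libraries. In epithelial cells, where the main counts are 0, 1 member was called from caput to cauda by edgeR, by DESeq2, with DESeq2's size factors, with all miRNAs of at least 1 count, and with miR-34b-5p and miR-34c-5p summed. Testing all miRNAs with at least 1 count also called 1 member between caput and corpus and 1 between corpus and cauda, and fitting only the 2 regions compared called 1 from caput to corpus. The cause of these differences was not tested.

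Leaving out single libraries gave 0 to 1 members for caput to corpus, 0 to 3 for corpus to cauda and 0 to 2 from caput to cauda in epithelial cells. Between the preparations it gave 0 to 1 in the caput, 1 to 3 in the corpus and 2 to 4 in the cauda, and for the interaction 0 to 1, 0 to 1 and 0 to 3 from caput to corpus, corpus to cauda and caput to cauda. The arm ratio of miR-34b was called in whole tissue from caput to corpus and from caput to cauda in all fits, and its change from corpus to cauda ranged without a library from -0.35 to 0.0056, and in epithelial cells from -0.49 to 0.11.

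In the preparation comparisons, 3 members were called in the corpus by edgeR and by DESeq2. The same number was called there with all shared names of at least 1 count and with miR-34b-5p and miR-34c-5p summed. In the cauda 4 were called with library totals and with DESeq2's size factors. The interaction from caput to cauda called 16 miRNAs higher and 12 lower with library totals, and 13 and 12 with DESeq2's size factors. With TMM it called 36 in all, of which 10 were lower and the others higher.

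Signs turned only for changes that were not called. With library totals, miR-34b-5p and miR-34c-5p changed by 0.24 and 0.15 from caput to corpus in whole tissue, and miR-34a-5p by 0.12 from caput to cauda in epithelial cells. By edgeR the interaction from corpus to cauda was 0.12 for miR-34b-3p and 0.031 for miR-34b-5p. Without a library, miR-34b-5p ranged from -0.18 to 0.086 from caput to corpus in whole tissue. In epithelial cells miR-34c-5p ranged from -0.054 to 1.37 from corpus to cauda, and from caput to cauda miR-34a-5p from -0.18 to 0.16, miR-34b-5p from -0.60 to 1.04, miR-34c-5p from -1.16 to 0.29 and miR-449a-5p from -0.42 to 1.11. Against whole tissue, miR-34b-5p ranged from -0.061 to 0.29 and miR-449a-5p from -0.80 to 0.21 in the caput, and miR-449a-5p from -1.46 to 0.054 in the cauda. The interaction from corpus to cauda ranged from -0.92 to 0.68 for miR-34b-3p, -0.90 to 0.58 for miR-34b-5p, -1.09 to 0.21 for miR-34c-5p and -0.43 to 0.96 for miR-449a-5p, and from caput to cauda from -1.03 to 0.32 for miR-449a-5p.

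A replicate block changed no count of members called, with 2, 5 and 3 in whole tissue and 0 in epithelial cells. In whole tissue the deviations of same-numbered libraries were correlated at -0.01 and -0.04 for caput and corpus, 0.21 and 0.10 for corpus and cauda, and 0.17, 0.12 and 0.08 for caput and cauda. In epithelial cells the values were 0.20, -0.05 and -0.09 for these pairs of regions. Since they did not all exceed 0.1, the numbers were not taken to pair the samples. The depth of the epithelial corpus, at most 127111 counts, limits what can be said of miR-34c-3p and miR-449a-5p there.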
